A study of Mus musculus with 6 samples.

Results

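The prostaglandin synthesis enzymes described here are 10 genes, Pla2g4a, Ptgs1, Ptgs2, Ptges, Ptges2, Ptges3, Ptgds, Ptgis, Hpgds and Tbxas1, taken by exact symbol from a table of 43283 genes, and all 10 were found. The series holds 6 RNA sequencing libraries of mouse muscle stem cells, 3 from cells kept for 24 h with prostaglandin E2 (PGE2) and 3 from cells kept for 24 h with DMSO, the solvent control called Vehicle. The cells of both groups were sorted by flow cytometry from hindlimb muscle of female C57BL/6 mice (8 to 12 weeks old by the sample labels, 2 to 4 months by the series text) as carrying α7 integrin and CD34 and lacking CD45, Sca1, CD31 and CD11b, and were cultured with 20% fetal bovine serum. RNA came from 5000 to 10000 cells and the cDNA was amplified before sequencing. The PGE2 concentration, the number of animals and whether they were pooled were not stated in any label, so the p-values describe library-to-library spread that could be partly technical.

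Prostaglandins are made from arachidonic acid in a short chain of enzymes. A phospholipase A2 frees the fatty acid from membrane lipids, a cyclooxygenase turns it into the unstable intermediate PGH2, and a terminal synthase then fixes which prostanoid leaves the cell, such as PGE2, PGD2, prostacyclin or thromboxane A2. In muscle, prostaglandins are known as products of injured and inflamed tissue, and PGE2 can signal through receptors that raise cAMP in the cells that receive it.

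Transcripts of only 2 of the 10 enzymes averaged above 5 TPM (the length-corrected share of a library's transcripts). Ptgs1, the constitutive cyclooxygenase, averaged 20.6 ± 13.5 TPM in PGE2 libraries and 6.98 ± 1.49 TPM in Vehicle libraries (SD, n = 3 each). Ptges3, which encodes the HSP90 co-chaperone p23, also known as cytosolic PGE synthase, averaged 859 ± 73.3 TPM in PGE2 libraries and 1044 ± 125 TPM in Vehicle libraries (SD, n = 3 each). The inducible cyclooxygenase, the inducible PGE synthase and the synthases of PGD2, prostacyclin and thromboxane A2 stayed below 5 TPM in each of the 6 libraries. None of the members passed the test over all genes.

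The promoter windows of the cyclooxygenase genes and of Ptges3 are shown because these genes hold nearly all the cyclooxygenase and PGE synthase transcripts and because CREB is a main route from cAMP to genes. Each window runs from 250 bases before to 50 bases after the RefSeq gene start (GRCm38.p6, the build that mm10 names), 5′ to 3′ on the gene's strand, which is the plus strand for all 3. Capitals mark the core of the CREB site, CGTCA or its complement TGACG on the other strand. They lie at chr2:36230176-36230475 for Ptgs1, chr1:150099781-150100080 for Ptgs2 and chr10:128058732-128059031 for Ptges3.
Ptgs1: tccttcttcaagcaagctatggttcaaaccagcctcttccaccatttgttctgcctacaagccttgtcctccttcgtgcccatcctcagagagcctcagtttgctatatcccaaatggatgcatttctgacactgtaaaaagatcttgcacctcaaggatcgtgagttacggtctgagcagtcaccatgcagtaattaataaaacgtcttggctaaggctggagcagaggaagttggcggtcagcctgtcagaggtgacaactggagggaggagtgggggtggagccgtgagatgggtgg
Ptgs2: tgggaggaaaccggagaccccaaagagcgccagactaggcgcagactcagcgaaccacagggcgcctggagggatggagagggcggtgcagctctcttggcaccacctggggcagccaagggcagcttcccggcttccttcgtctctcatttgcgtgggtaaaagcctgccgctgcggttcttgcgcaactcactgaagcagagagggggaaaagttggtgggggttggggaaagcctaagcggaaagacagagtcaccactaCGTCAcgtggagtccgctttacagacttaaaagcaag
Ptges3: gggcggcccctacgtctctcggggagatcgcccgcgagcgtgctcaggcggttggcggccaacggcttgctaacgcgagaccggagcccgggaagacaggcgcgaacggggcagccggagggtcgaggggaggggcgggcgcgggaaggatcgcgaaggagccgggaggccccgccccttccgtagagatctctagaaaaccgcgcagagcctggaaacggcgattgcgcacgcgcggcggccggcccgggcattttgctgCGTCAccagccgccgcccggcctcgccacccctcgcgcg
The Ptgs1 window held no CREB core, and the Ptgs2 and Ptges3 windows held 1 each, which begins at base 14 after the annotated start in Ptgs2 and at base 12 in Ptges3, counting the start as base 1. In Ptgs2 the CREB core shares its last letters with an E-box (CANNTG, the same on both strands), a motif read by basic helix-loop-helix factors. The Ptgs1 window held 3 E-boxes, the Ptgs2 window 3 and the Ptges3 window 0. Over all 32851 RefSeq windows of this length, 20.8% held the CREB core and 72.3% an E-box. The full CREB site TGACGTCA was in 1.79% of all windows and in none of the 10 windows of the 9 members that had one. Among those 10 windows the CREB core was found in the 2 shown. The windows also differed in base composition, with a GC content of 50.7% in Ptgs1, 59.3% in Ptgs2 and 73.7% in Ptges3, against a median of 52.7% over all windows. A match is a stretch of letters and not a measured binding site. Positions count from the annotated start, and where transcripts begin in these cells was not measured.

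The libraries listed between 15400 and 17710 genes above 0 in PGE2 and between 16446 and 19677 in Vehicle. Mitochondrial genes held 23.0% to 30.4% of the TPM in PGE2 libraries and 20.9% to 33.6% in Vehicle libraries. Read depth is not recoverable from TPM, so the depth behind each value is unknown and no counting interval is given. All 11 muscle stem cell markers, Pax7, Cd34 and Itga7 among them, averaged 1 TPM or more, and their summed level was 856, 880.0 and 1092.4 TPM in PGE2 1 to 3, against 935, 1091.9 and 1127.3 TPM in Vehicle 1 to 3.

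**Figure D1:**
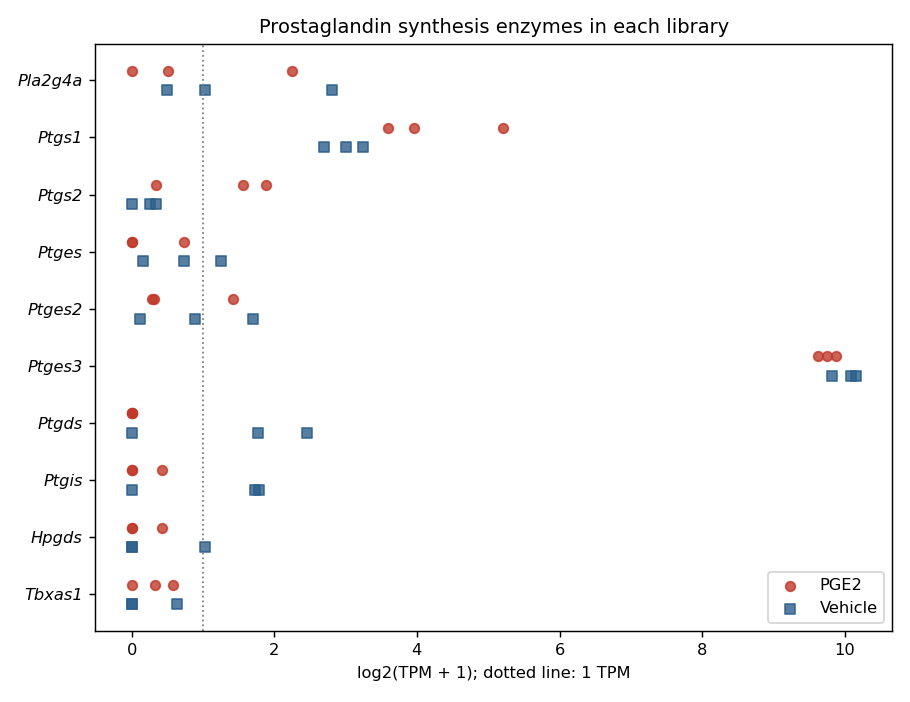
Levels of the 10 enzymes as log2(TPM + 1), with 1 point per library (PGE2 circles, Vehicle squares) and a dotted line at 1 TPM. Ptges3 lies far to the right of the others, Ptgs1 is the only other gene above 5 TPM in each library, and the remaining 8 genes lie at or near 0 in most libraries.

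Ptgs1 (ENSMUSG00000047250, mm10 chromosome 2, 36230426 to 36252272, plus strand) encodes cyclooxygenase 1, which many tissues express without stimulation. It read 36.0, 14.6 and 11.1 TPM in PGE2 1 to 3, against 5.46, 8.43 and 7.06 TPM in Vehicle 1 to 3. Each PGE2 library was above each Vehicle library, and PGE2 1 was far above the other PGE2 libraries. The ratio of the mean levels was 2.95, and the log2 change (log2(TPM + 1) in PGE2 minus that in Vehicle) came to 1.28, or 2.43-fold, with a 95% confidence interval of 0.14 to 2.41. Limma gave an unadjusted p of 0.0312 and, over the 12781 genes tested, an adjusted p of 1.00 by Benjamini-Hochberg, so Ptgs1 did not pass the threshold of 0.05. The exact permutation test over the 6 libraries gave a two-sided p of 0.1, the smallest that 3 against 3 allows. Without PGE2 1 the log2 change was 0.80 (95% confidence interval -0.20 to 1.80). 

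Ptgs1 was the only 1 of the 10 members, and so of the 3 tested, whose groups did not overlap. Such a separation was found in 8.01% of all genes tested, 3.18% with PGE2 higher. Ptgs1 was also the only 1 of the 3 tested members with an unadjusted limma p under 0.05, which 3.63% of all genes tested had. Of the 12781 genes, 0 (0%) passed limma's test after Benjamini-Hochberg adjustment, and 464 had an unadjusted p under 0.05. An antisense transcript of uncertain coding status, Gm43621, overlaps an exon of Ptgs1 in GENCODE M21 and was not analysed here. Whether counting used strand is not given in the sources used here, and without strand reads from the overlap cannot be told apart.

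Other cells of muscle and blood also express Ptgs1, so their markers were read beside it. The summed level of 8 fibro-adipogenic markers was 37.5, 45.9 and 39.4 TPM in PGE2 1 to 3, against 19.2, 31.5 and 29.9 TPM in Vehicle 1 to 3. These sums did not overlap between the groups, but 0 of the 8 markers had groups that separated on their own. Only 3 averaged 1 TPM or more. The collagen gene Col3a1 made up the larger part of the sum in each library. It read 36.5, 30.4 and 24.9 TPM in PGE2, against 15.3, 28.1 and 20.2 TPM in Vehicle. The Sca1 gene Ly6a was at 0, 13.6 and 0 TPM in PGE2, against 2.22, 3.38 and 7.92 TPM in Vehicle, and Col1a1 reached 14.4 TPM in PGE2 3 and stayed at or below 0.44 TPM in the other libraries. Pdgfra read 0.82, 0.18 and 0 TPM in PGE2, against 0.25, 0 and 1.45 TPM in Vehicle. Dcn read 0, 1.37 and 0 TPM in PGE2, against 0.25, 0 and 0.30 TPM in Vehicle. Lum and Dpt were above 0 only in Vehicle 1, at 0.21 and 0.52 TPM, and Pi16 was listed at 0 in all 6 libraries. The summed level of 15 leukocyte and macrophage markers overlapped, at 9.88, 10.5 and 17.1 TPM in PGE2, against 11.4, 7.41 and 3.70 TPM in Vehicle. Of these 15, 3 averaged 1 TPM or more, each with overlapping groups. The CD45 gene Ptprc read 1.80, 3.47 and 4.81 TPM in PGE2, against 4.19, 0.81 and 0.45 TPM in Vehicle. Csf1r read 0, 2.85 and 4.07 TPM in PGE2, against 0.81, 0.18 and 0.27 TPM in Vehicle. Laptm5 read 6.45, 0 and 1.32 TPM in PGE2, against 2.93, 5.50 and 0.83 TPM in Vehicle. The macrophage complement genes C1qa, C1qb and C1qc and the leukocyte genes Cd52 and Coro1a were listed at 0 in each library. Cd14 read 1.63, 0 and 3.30 TPM in PGE2, against 0, 0 and 0.34 TPM in Vehicle. Means were also higher in PGE2 for Itgam, Tyrobp and Fcer1g, and lower for Cd68, Adgre1 and Lyz2. The groups overlapped for each of these genes. Platelets are rich in cyclooxygenase 1, and 5 of 6 platelet markers, Pf4 and Ppbp among them, were listed at 0 throughout. Endothelial markers summed to 4.66 to 9.15 TPM in PGE2 and 4.15 to 10.2 TPM in Vehicle. Of these, only Eng had groups that separated, with PGE2 higher. It read 2.55, 6.44 and 2.54 TPM in PGE2, against 1.57, 1.1 and 0.96 TPM in Vehicle. Its log2 change was 1.05 (95% confidence interval -0.2 to 2.3, limma unadjusted p = 0.092). Pericyte and smooth muscle markers summed to 10.2 to 12.0 TPM in PGE2 and 7.04 to 16.0 TPM in Vehicle. Among them Myh11 separated with PGE2 higher, and Cspg4 and Kcnj8 with PGE2 lower, all at or below 1.81 TPM. These genes did not reach 1 TPM in 3 libraries and were not tested. The share of 8.01% for all genes tested therefore does not cover them. The sort kept cells without Sca1, CD45 and CD31, a gate meant to leave out fibro-adipogenic cells, leukocytes and endothelial cells. The part of fibro-adipogenic, endothelial, pericyte or smooth muscle cells, leukocytes or platelets in the Ptgs1 difference was not tested. In bulk RNA, a change in the number of cells of a type and a change in RNA per cell cannot be told apart.

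Ptgs2 (ENSMUSG00000032487, chromosome 1, 150100031 to 150108227, plus strand) encodes cyclooxygenase 2, the form that cytokines, growth factors and injury induce in many cells. It read 0.27, 2.69 and 1.94 TPM in PGE2 1 to 3, against 0.20, 0.27 and 0 TPM in Vehicle 1 to 3. PGE2 2 and PGE2 3 were above the Vehicle libraries, while PGE2 1 equalled Vehicle 2 at 0.27 TPM. Only 2 libraries reached 1 TPM, so Ptgs2 did not pass the filter of 1 TPM in 3 libraries and was not tested. PGE2 1 had the most Ptgs1 and the least Ptgs2 of the PGE2 libraries, while PGE2 2 had more of both than PGE2 3. Ptgs1 held 99.3%, 84.5% and 85.1% of the cyclooxygenase TPM in PGE2 1 to 3. In Vehicle 1 and 2 it held 96.5% and 96.9%, and in Vehicle 3 the whole. The summed cyclooxygenase level was 36.2, 17.3 and 13.0 TPM in PGE2, against 5.66, 8.70 and 7.06 TPM in Vehicle. Since Ptgs1 held most of this sum, its lack of overlap restates that of Ptgs1.

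**Figure D2:**
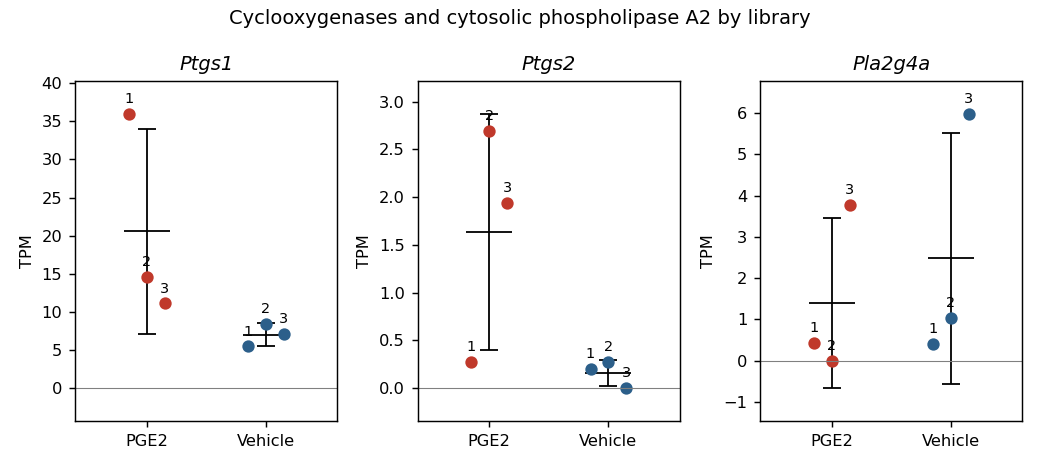
TPM of Ptgs1, Ptgs2 and Pla2g4a, with 1 point per library labelled by its replicate number, and the mean and SD of 3 libraries as a bar with caps. The 3 PGE2 libraries of Ptgs1 lie between 11.1 and 36.0 TPM, above the Vehicle libraries at 5.46 to 8.43 TPM, whereas the groups overlap for Ptgs2 and Pla2g4a.

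Pla2g4a (ENSMUSG00000056220, chromosome 1, 149829618 to 149961290, minus strand) encodes cytosolic phospholipase A2 alpha, which frees arachidonic acid when calcium rises. It read 0.43, 0 and 3.77 TPM in PGE2 1 to 3, against 0.41, 1.04 and 5.98 TPM in Vehicle 1 to 3. PGE2 3 and Vehicle 3 were the highest of their groups, and the groups overlapped. The log2 change was -0.52 (95% confidence interval -2.30 to 1.26, limma unadjusted p = 0.53, Benjamini-Hochberg adjusted p = 1.00), an interval that spans a fall and a rise of more than 1 on the log2 scale. It turned to 0.16 without Vehicle 3. Pla2g4a and Ptgs2 are neighbours on chromosome 1, with 138740 bases between their annotated ends. The Ptgs2 level was highest in PGE2 2, where Pla2g4a was listed at 0.

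Among the 3 PGE synthases, Ptges3 held 99.8%, 99.9% and 99.98% of the summed TPM in PGE2 1 to 3, against 99.98%, 99.8% and 99.7% in Vehicle 1 to 3. Ptges3 (ENSMUSG00000071072, chromosome 10, 128058954 to 128077272, plus strand) ranked 78 by mean TPM among 21478 protein-coding genes. It read 786, 857 and 933 TPM in PGE2 1 to 3, against 1088, 903 and 1141 TPM in Vehicle 1 to 3. PGE2 3 lay above Vehicle 2, so the groups overlapped. The log2 change was -0.28 (95% confidence interval -0.94 to 0.38) and did not pass limma's test (unadjusted p = 0.37, Benjamini-Hochberg adjusted p = 1.00). The interval leaves room for a fall of 0.94 on the log2 scale and for a rise of 0.38.

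The Ptges3 value shares sequence with a second row of the table. Ptges3-ps (ENSMUSG00000040078, listed in the table as Gm9769, chromosome 6, 85843980 to 85844459, plus strand) is a processed pseudogene of 480 bases, and all 480 are identical to bases 332 to 811 of the 2000-base Ptges3 transcript in GENCODE M21. It read 759, 372 and 665 TPM in PGE2 1 to 3, against 579, 427 and 491 TPM in Vehicle 1 to 3, with overlap between the groups. How much of either value belongs to the other gene cannot be told from the table, so the level of Ptges3 is uncertain. The sum of both rows was 1546, 1229 and 1598 TPM in PGE2, against 1667, 1329 and 1632 TPM in Vehicle. Ptges3 held 50.9%, 69.8% and 58.4% of that sum in PGE2 and 65.3%, 67.9% and 69.9% in Vehicle. TPM corrects for length, so a read placed on the 480-base pseudogene adds more TPM than one placed on the 2000-base transcript. The sum and these shares are thus not shares of reads, and a fit of the sum carries the same weighting. With the rows summed, the log2 change was -0.08 (95% confidence interval -0.80 to 0.63), and it was -0.09 when Gm11893, another processed pseudogene that is 94.3% identical over 495 aligned positions and reads at most 12.5 TPM, was added too. This moves the fitted value by more than 1.5 times, and no setting brought Ptges3 past the threshold.

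**Figure D3:**
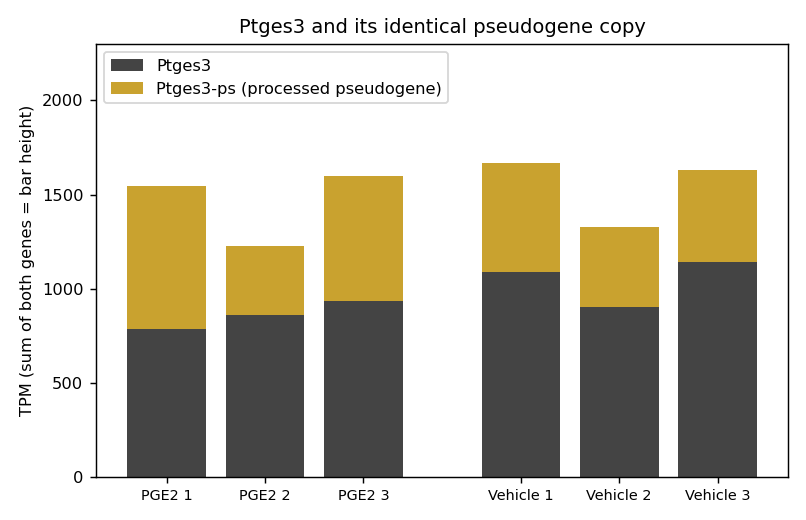
TPM of Ptges3 (dark) and of its identical pseudogene copy Ptges3-ps (light) in each library, stacked so that the height is their sum. The sum lies between 1229 and 1598 TPM in PGE2 and between 1329 and 1667 TPM in Vehicle, and the Ptges3 part is smallest in PGE2 1, at 50.9%.

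The membrane-bound PGE synthases were near 0. Ptges (ENSMUSG00000050737, chromosome 2, 30889471 to 30929863, minus strand), the microsomal synthase that is often induced together with Ptgs2, read 0, 0.66 and 0 TPM in PGE2 1 to 3, against 0.12, 0.66 and 1.39 TPM in Vehicle 1 to 3. Only Vehicle 3 reached 1 TPM. Ptges2 (ENSMUSG00000026820, chromosome 2, 32395896 to 32405772, plus strand), a membrane-associated synthase, read 1.67, 0.24 and 0.22 TPM in PGE2 and 0.09, 0.85 and 2.24 TPM in Vehicle. It was above 0 in all 6 libraries and overlapped between the groups. The 2 genes together stayed at or below 1.67 TPM in PGE2 and at or below 3.63 TPM in Vehicle. Neither passed the filter.

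The synthases of the other prostanoids were listed at 0 in 3 or more of the 6 libraries each. Ptgds (ENSMUSG00000015090, chromosome 2, 25466709 to 25470046, minus strand), the lipocalin-type PGD synthase, was listed at 0 in PGE2 1 to 3 and read 4.51, 2.42 and 0 TPM in Vehicle 1 to 3. Ptgis (ENSMUSG00000017969, chromosome 2, 167191805 to 167240604, minus strand), the prostacyclin synthase of vessel walls, read 0, 0 and 0.34 TPM in PGE2 and 2.45, 2.33 and 0 TPM in Vehicle. For both genes Vehicle 1 and Vehicle 2 carried the transcripts and Vehicle 3 was listed at 0, so the groups touched or overlapped. On the opposite strand 1110018N20Rik overlaps an exon of Ptgis, and it read 0.47 TPM in Vehicle 1 and 0 in the other libraries. Hpgds (ENSMUSG00000029919, chromosome 6, 65117293 to 65144908, minus strand), the PGD synthase of mast cells and other blood cells, read 0, 0.35 and 0 TPM in PGE2 and 0, 1.04 and 0 TPM in Vehicle. Tbxas1 (ENSMUSG00000029925, chromosome 6, 38875404 to 39084585, plus strand), the thromboxane synthase of platelets and macrophages, read 0, 0.26 and 0.49 TPM in PGE2 and 0.56, 0 and 0 TPM in Vehicle. Neither gene had groups that separated. An antisense transcript, Gm42962, overlaps an exon of Tbxas1 and was not analysed here. The limit on strand given for Ptgs1 also holds for Ptgis and Tbxas1.

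The 4 genes together summed to 0, 0.61 and 0.83 TPM in PGE2 1 to 3, against 7.52, 5.79 and 0 TPM in Vehicle 1 to 3. Most of the Vehicle sum was Ptgds and Ptgis in Vehicle 1 and Vehicle 2, the libraries with the most genes listed above 0. Mast cells are a known source of Hpgds, and 8 mast cell markers summed to 0.26, 24.1 and 0.78 TPM in PGE2 1 to 3, against 3.39, 2.06 and 0.66 TPM in Vehicle 1 to 3. PGE2 2, where Hpgds read 0.35 TPM, had the highest sum, of which the Fc receptor gene Ms4a2 made up 23.1 TPM. Hpgds was highest in Vehicle 2, at 1.04 TPM, where the marker sum was 2.06 TPM. Cpa3, Fcer1a and Tpsb2 were listed at 0 throughout. The sort for cells without CD45 is meant to leave out mast cells, and their part in the Hpgds values was not tested. At an exact 0 the table cannot separate an absent transcript from a failed estimate. Each of 13 housekeeping genes read above 0 in every library.

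In all, 3 of the 10 members (Ptgs1, Ptges3 and Pla2g4a) passed the filter and 7 did not. When the filter was lowered to genes above 0 in any library, all 10 were fitted among 26770 genes and 0 passed limma's test after Benjamini-Hochberg adjustment. There the log2 change was 1.06 for Ptgs2 (95% confidence interval -0.29 to 2.41), -1.41 for Ptgds (-2.95 to 0.12) and -1.03 for Ptgis (-2.40 to 0.34). The unadjusted limma p was 0.111 for Ptgs2, 0.0677 for Ptgds and 0.124 for Ptgis.

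**Figure D4:**
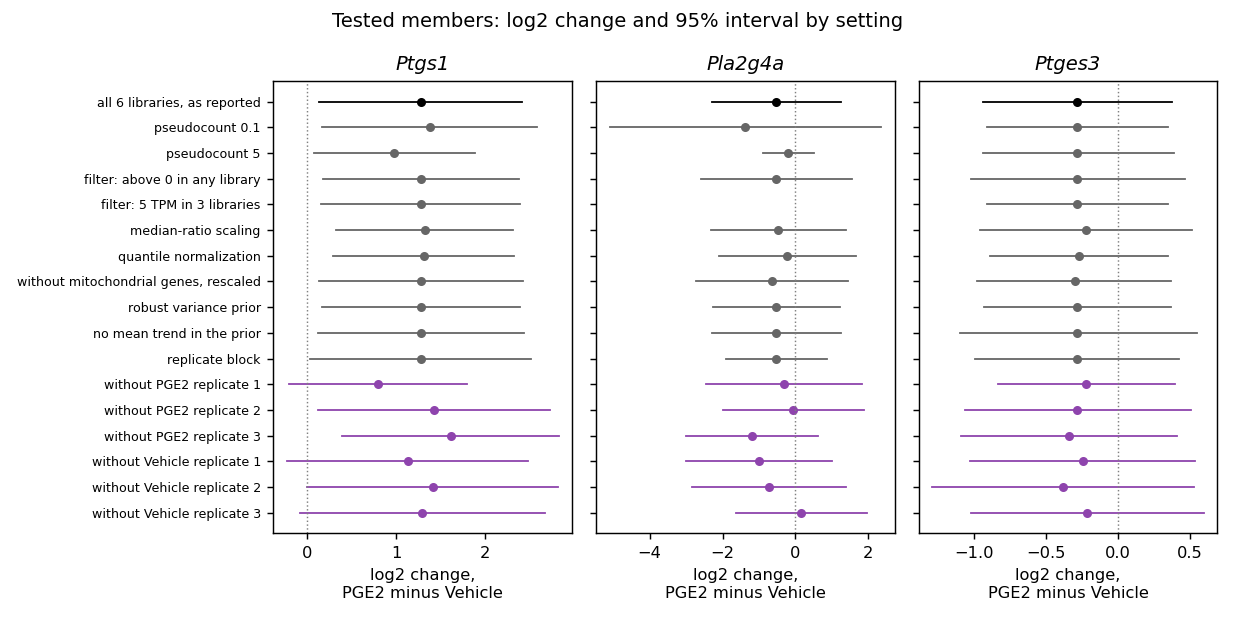
Log2 change (PGE2 minus Vehicle) and its 95% confidence interval for the 3 tested members, as reported (black), under other settings (grey) and with 1 library left out (purple). The fitted value of Ptgs1 runs from 0.80 without PGE2 1 to 1.61 without PGE2 3, and its interval spans 0 without PGE2 1 (-0.20 to 1.80), Vehicle 1 (-0.22 to 2.48) or Vehicle 3 (-0.08 to 2.67). The intervals of Pla2g4a and Ptges3 span 0 in each setting shown.

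The rest of the pathway was read from 6 lists with 77 genes, of which 41 passed the filter. Of these 41, 18 were fitted higher and 23 lower in PGE2 than in Vehicle, and the median log2 change was -0.11, against -0.07 over all genes tested. None passed limma's test after Benjamini-Hochberg adjustment, and 2 (4.88%) had an unadjusted p under 0.05, against 3.63% of all genes tested. The groups did not overlap for 3 of the 41 (7.32%), against 8.01% of all genes tested.

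In the list for the release and remodelling of arachidonic acid, 14 of 29 genes were tested, 6 with higher and 8 with lower fitted values and a median log2 change of -0.18. It held both genes with an unadjusted p under 0.05. Mboat7, an acyltransferase that puts arachidonic acid back into phosphatidylinositol, read 20.4, 82.2 and 57.6 TPM in PGE2 1 to 3, against 19.2, 18.9 and 9.06 TPM in Vehicle 1 to 3. PGE2 1 was only just above the Vehicle libraries. Its log2 change was 1.56 (95% confidence interval 0.38 to 2.75, limma unadjusted p = 0.0148, Benjamini-Hochberg adjusted p = 1.00), and was 1.15 without PGE2 2 and 2.13 without PGE2 1. Pla2g12a, a secreted phospholipase A2, read 3.29, 0.79 and 1.84 TPM in PGE2, against 4.61, 6.13 and 9.35 TPM in Vehicle, with no overlap. Its log2 change was -1.42 (95% confidence interval -2.69 to -0.14, limma unadjusted p = 0.0326, Benjamini-Hochberg adjusted p = 1.00), and was -0.74 at a pseudocount of 5, with the largest unadjusted p, 0.115, without Vehicle 3. The most abundant genes of the list had overlapping groups. Anxa1, a phospholipase inhibitor, averaged 182 ± 37.3 TPM in PGE2 and 142 ± 31.9 TPM in Vehicle, and S100a10, an annexin partner, averaged 214 ± 66.3 TPM in PGE2 and 227 ± 61.4 TPM in Vehicle (SD, n = 3 each).

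Of the genes for PGF2 alpha synthases and carbonyl reductases, 5 of 7 were tested, 4 with higher and 1 with lower fitted values and a median log2 change of 0.11. Akr1b3, the aldose reductase that can also make PGF2 alpha, read 396, 286 and 262 TPM in PGE2 1 to 3, against 192, 197 and 257 TPM in Vehicle 1 to 3. The groups did not overlap, by a margin of a few TPM between PGE2 3 and Vehicle 3. Its log2 change was 0.53 (95% confidence interval -0.12 to 1.19, limma unadjusted p = 0.0994, Benjamini-Hochberg adjusted p = 1.00). Akr1b8, a related reductase, averaged 17.5 ± 4.75 TPM in PGE2 and 16.0 ± 4.46 TPM in Vehicle (SD, n = 3 each). Akr1b3 was thus, after Ptges3, the transcript of the largest level among the named enzymes that can act on PGH2.

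Of the other arachidonic acid branches, 7 of 16 genes were tested, 1 with a higher and 6 with lower fitted values and a median log2 change of -0.59. Alox5, the enzyme that starts leukotriene synthesis, read 4.33, 8.07 and 2.16 TPM in PGE2, against 8.86, 12.1 and 5.05 TPM in Vehicle. The groups overlapped. Lta4h, which makes leukotriene B4, averaged 5.82 ± 3.30 TPM in PGE2 and 6.89 ± 0.789 TPM in Vehicle (SD, n = 3 each). None of these genes had an unadjusted p under 0.05.

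Of the 9 prostanoid receptor genes, only Ptger4 was tested. This receptor for PGE2 averaged 8.23 ± 3.80 TPM in PGE2 and 7.50 ± 2.44 TPM in Vehicle (SD, n = 3 each), with a log2 change of 0.08 that turned to -0.23 without PGE2 1 and -0.12 without Vehicle 2. Ptger1, another PGE2 receptor, read 2.43, 0 and 0.39 TPM in PGE2 1 to 3, against 0.76, 1.18 and 0.58 TPM in Vehicle 1 to 3, and was not tested. Of the transport and breakdown genes, 5 of 7 were tested, 1 with a higher and 4 with lower fitted values. Ptgr1, a reductase that inactivates prostaglandin metabolites, averaged 129 ± 48.7 TPM in PGE2 and 154 ± 86.8 TPM in Vehicle, and Ptgfrn, a negative regulator of the PGF2 alpha receptor, averaged 26.0 ± 9.63 TPM in PGE2 and 42.4 ± 11.9 TPM in Vehicle (SD, n = 3 each). HSP90, the partner of p23, and other co-chaperones were all tested (9 of 9), 5 with higher and 4 with lower fitted values and a median log2 change of 0.02. Hsp90aa1 averaged 5080.3 ± 1229.7 TPM in PGE2 and 6108.9 ± 436 TPM in Vehicle, and Hsp90ab1 averaged 4432.1 ± 2136.5 TPM in PGE2 and 4043.7 ± 625 TPM in Vehicle (SD, n = 3 each).

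**Figure D5:**
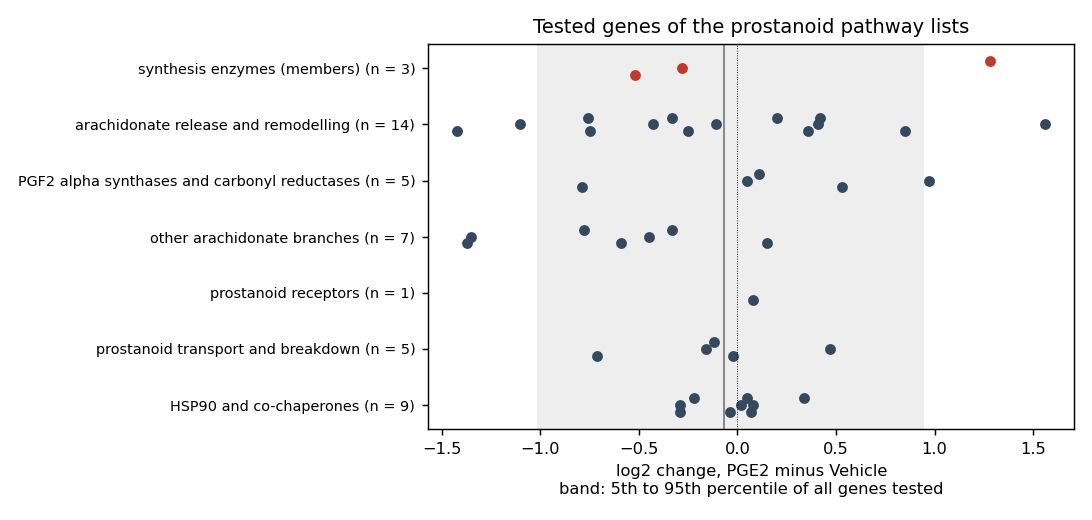
Log2 change (PGE2 minus Vehicle) of each tested gene, by pathway list, with the synthesis enzymes in red. The band runs from the 5th to the 95th percentile of all genes tested (-1.01 to 0.94) and the solid line is their median (-0.07). Ptgs1 at 1.28 and Mboat7 at 1.56 lie right of the band and Pla2g12a at -1.42 left of it.

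Among 7383 protein-coding genes that averaged at least 5 TPM, those most like Ptgs1 over the 6 libraries were Antxr2 (an anthrax toxin receptor), Haus5 (an augmin subunit) and Mak16 (a ribosome assembly factor), with Pearson's r of log2(TPM + 1) of 0.997, 0.979 and 0.976. Each of them was highest in PGE2 1, as Ptgs1 was. Antxr2, for example, read 58.6, 44.0 and 40.0 TPM in PGE2 1 to 3, against 30.4, 35.4 and 34.4 TPM in Vehicle 1 to 3. The genes most like Ptges3 were Mrps15, Nab1 and Rasa1, with r of 0.980, 0.978 and 0.976. Rasa1, a Ras GTPase-activating protein, read 217, 268 and 293 TPM in PGE2, against 337, 270 and 401 TPM in Vehicle. With 6 points and this many genes searched, values of r this high are a description of these libraries.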

How the data were processed

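The authors deposited 1 table with 1 column per library. Its values are TPM, a length-corrected share of each library's transcripts, deposited by the authors with no header that names the unit. The unit was inferred from 2-decimal values that sum to between 992357 and 995645 per library. Per the submitters' processing notes, STAR, RSEM and mm10 were used, with versions, settings and annotation release not given in the sources used here. Per the labels' protocols the cDNA was amplified with a NuGEN kit, which can widen the spread of low genes. RSEM is a program that apportions reads matching several genes, which bears on Ptges3.

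Members were matched by symbol, and positions and gene types came from GENCODE M21 (42782 of 43283 identifiers found). The 12781 genes that reached 1 TPM in 3 or more libraries were fitted as log2(TPM + 1) in R 4.3.3 by limma 3.58.1, whose variance prior followed a mean trend, two-sided, with Benjamini-Hochberg adjustment over all genes tested and a threshold of 0.05. A fold change on the log2(TPM + 1) scale understates the change of low genes. Near-identical copies were sought with BLAST 2.17.0 among GENCODE transcripts (90% identity over 200 bases). Python 3.11.15 made tables and figures. Promoter sequences are from RefSeq (GRCm38.p6), for 9 of the 10 members.

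Members and lists were chosen with earlier results of these data known. The genes named are the 10 members and, in each of the 6 pathway lists, those with an unadjusted p under 0.05 and the 2 with the highest mean. Marker genes named as examples were chosen after their values were seen. Genes most like a member were sought for the tested member with the smallest p and for the most abundant one.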

Additional observations from a re-analysis of the deposited data

How the results depend on the processing

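No setting brought a member past the threshold. The log2 change of Ptgs1 kept its sign in each setting tried, from 0.80 to 1.61 with 1 library left out (unadjusted p 0.0153 to 0.101), and that of Ptges3 from -0.38 to -0.21. Pla2g4a ranged from -1.18 to 0.16 with 1 library left out, with the sign turned without Vehicle 3, and was -1.37 at a pseudocount of 0.1. Mboat7 ranged from 1.15 to 2.13 and Pla2g12a from -1.72 to -1.09 with 1 library left out. The unadjusted p of Mboat7 rose above 0.05 without PGE2 2 (0.0652), PGE2 3 (0.0523) or Vehicle 3 (0.0618). That of Pla2g12a did so without PGE2 2 (0.0899), PGE2 3 (0.0557), Vehicle 2 (0.0786) or Vehicle 3 (0.115), with the replicate block (0.0547) and with the filter at above 0 in any library (0.0509), and its log2 change was -1.86 at a pseudocount of 0.1. Over all genes, limma called 1 gene with a robust variance prior, 4 with no mean trend in the prior and 0 to 2 with 1 library left out (1 without PGE2 1, PGE2 2 or Vehicle 1, 2 without PGE2 3). Unadjusted p under 0.05 was reached by 979 genes without PGE2 1 and 758 without PGE2 3, against 464. With 1 library left out the sign also turned for Akr1b8 (-0.08 to 0.35), Hsp90ab1 (-0.33 to 0.40), Lta4h (-0.68 to 0.09), Ptger4 (-0.23 to 0.30), Ptgr1 (-0.55 to 0.26) and S100a10 (-0.30 to 0.19), and for Hsp90ab1 after quantile normalization (-0.09). The cause was not tested. With the replicate number as a block, limma called 0 genes and Ptgs1 had an unadjusted p of 0.0441. Deviations of same-numbered libraries correlated at -0.062, -0.044 and 0.07, against -0.054 to 0.093 for libraries of different number. The labels give no pairing, and values near 0 cannot exclude it, since deviations were taken from means of 3 libraries. The sum with Gm11893 was chosen after seeing the data. Depth is unknown, so how far it limits the 7 low members cannot be stated.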
